A study of Mus musculus with 6 samples.

Results

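The 9 genes described here encode collagen chains of types I (Col1a1, Col1a2), III (Col3a1), V (Col5a1, Col5a2), VI (Col6a1, Col6a2, Col6a3) and XII (Col12a1), and were taken by gene symbol from a table of 35976 genes. All 9 were in the table and all 9 passed the filter on low counts, as did 13761 genes in all. Polyadenylated RNA was sequenced from mouse embryonic chondrocytes (day 18.5, strain C57BL/6 x 129S4/SvJae, hind limb articular cartilage) that had been grown on tissue culture plastic for 16 population doublings. Every culture received doxycycline at 2 µg/ml throughout, inducing a histone H3.3 transgene. In 3 libraries (H3K9M, replicates 1, 3 and 5) lysine 9 of that histone was replaced by methionine, and these cells are labelled as having suppressed H3K9 methylation. The other 3 (H3WT, replicates 1, 2 and 4) expressed wild-type H3.3, so that the control cells also carried an induced histone transgene and doxycycline. The promoter and cell type that drive the transgene, the number of animals behind a library and a group without doxycycline are not given in the sources used here. The labels do not say whether the 3 libraries of a group came from separate animals or cultures, so p-values measure only the spread between these samples.

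Collagens are triple helices of 3 chains, and most genes here encode 1 chain of a mixed protein. Type I, made of chains from Col1a1 and Col1a2, is the main fibril of skin, tendon and bone and is scarce in healthy hyaline cartilage, whose fibril is type II. Chondrocytes spread on plastic are known to lose type II and to gain type I, which is why type I is read as a mark of dedifferentiation. Type III joins type I in soft tissues, type V starts the fibrils and limits their width, type XII sits on the fibril surface, and type VI forms beaded microfilaments that surround chondrocytes in the pericellular matrix.

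Total counts ran from 15113675 to 19606082 per library. The chondrocyte label was checked on 15 markers, of which 13 were in the table and all 13 were tested. Their summed level ran from 7338 to 11540 CPM (reads of a gene relative to a normalized library total) in H3K9M and from 7256 to 19400 CPM in H3WT, most of it Col2a1. All 13 were lower in H3K9M (median log2 fold change -1.03) and 0 passed the test. The lists of endothelial, keratinocyte and blood cell markers each summed to at most 15.2 CPM in any library, with Ptprc, Cdh5 and Krt5 at 0 counts in all 6. That highest sum was in H3K9M replicate 3 and was mostly the macrophage marker Cd68 (12.8 CPM). Skeletal muscle markers summed to 26.9 to 232.2 CPM in H3K9M and to 13.2 to 32.0 CPM in H3WT. All 5 tested markers of that list were higher in H3K9M (median log2 fold change 3.80), and 0 passed the adjusted threshold (edgeR). Of them, 4 had groups without overlap and an unadjusted p under 0.05 (edgeR), against 19.4% and 12.2% of all tested genes. Myod1 (0 to 20 counts in H3WT), Myh3 (0 to 12) and Tnnt3 (5 to 40) could pass the filter only with H3K9M libraries. The direction was therefore largely fixed in advance for Myod1 and Myh3, and in part for Tnnt3. The shares over all tested genes are no yardstick for these genes. The part of the muscle markers in the collagen values was not tested.

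The members are spread over 6 chromosomes. On mm10, the build named in the submitters' processing notes, Col3a1 (chr1:45311538-45349706, plus strand) and Col5a2 (chr1:45374321-45503282, minus strand) lie end to end with a gap of 24.6 kb and no annotated gene between them. Col6a2 (chr10:76595762-76623630) and Col6a1 (chr10:76708792-76726168) lie on the minus strand with a gap of 85.2 kb, which holds the annotated gene Gm35608. Col6a3 is at chr1:90765923-90843971, Col1a1 at chr11:94936224-94953042, Col1a2 at chr6:4504814-4541544, Col5a1 at chr2:27886425-28039514 and Col12a1 at chr9:79598991-79718831. The longest annotated transcripts have between 27 (Col6a2) and 66 exons (Col5a1, Col12a1), and 0 of the 9 share 90% identity over 200 or more bases with a transcript of another gene. Col5a1 shares exonic bases with 2 genes on the opposite strand (2810430I11Rik, Gm13372) and Col3a1 with a microRNA gene on its own strand (Gm47302). The counting rule for overlapping or stranded reads is not given in the sources used here, so some reads of these 2 genes are uncertain.

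Promoter sequences were matched in RefSeq (GRCm38.p6) for 6 of the 9 genes, and 3 are shown as examples. Col3a1 and Col5a1 had the same order of libraries by level and Col6a3 did not. Of the matched genes not shown, Col1a2 also had that order, and Col6a1 and Col6a2 had other orders. Each run gives the 150 bases before the start site, 5′ to 3′ on the gene's strand. Capitals mark matches to 4 short motifs, each searched on both strands and none overlapping another in these windows. The first motif is the core promoter box spelled TATAAA. The second is the box bound by Sp1 factors, spelled GGGCGG. The third is the box bound by the trimeric factor NF-Y, spelled CCAAT. The fourth is the Smad-binding element spelled CAGACA, which reads TGTCTG when it lies on the opposite strand.
Col3a1, chr1:45311388-45311537, plus: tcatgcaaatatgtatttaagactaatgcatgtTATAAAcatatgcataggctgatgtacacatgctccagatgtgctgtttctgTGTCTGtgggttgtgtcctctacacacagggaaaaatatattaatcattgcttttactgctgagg
Col5a1, chr2:27886275-27886424, plus: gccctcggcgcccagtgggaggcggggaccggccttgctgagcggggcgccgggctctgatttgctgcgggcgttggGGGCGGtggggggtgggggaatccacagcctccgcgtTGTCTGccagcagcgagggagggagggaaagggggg
Col6a3, chr1:90843972-90844121, minus: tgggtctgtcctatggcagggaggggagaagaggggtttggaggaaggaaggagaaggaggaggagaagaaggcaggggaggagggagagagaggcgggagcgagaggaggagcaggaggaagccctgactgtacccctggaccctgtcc

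The windows differ widely in composition. Over the 250 bases before the start site, Col3a1 had 35.2% G and C and 0 CG dinucleotides, Col5a1 76.4% and 28, and Col6a3 57.2% and 3, against medians of 52.4% and 6 over all 32851 promoters of the table. The first motif was found in 12.4% of all promoters of that length, the second in 32.7%, the third in 33.8% and the fourth in 17.1%. Among the matched members, the Smad element was in the windows of Col1a2, Col3a1 and Col5a1, and the NF-Y box in that of Col1a2. The Sp1 box was in those of Col1a2, Col5a1 and Col6a2, and the TATAAA box in that of Col3a1. None of the 4 was in those of Col6a1 and Col6a3. The windows of Col1a2 and Col6a1 and a window of Col6a2 touched an annotated exon of their own gene, so they are not wholly upstream of it. These are matches of letters and not measured binding sites.

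The collagen transcripts were among the most abundant in the cells. Col1a1 ranked 3 and Col1a2 ranked 5 by mean CPM among all tested genes, and the lowest-ranked members were Col6a1 (55) and Col6a2 (79). The 9 genes together took 4.25%, 2.15% and 3.61% of all counted reads in the H3K9M libraries (replicates 1, 3 and 5, in that order here and below) and 4.83%, 2.00% and 3.62% in the H3WT libraries (replicates 1, 2 and 4) (95% Wilson interval 4.24% to 4.26% in the first of these, counting error only). The mean was 3.33% ± 1.08 in H3K9M and 3.48% ± 1.42 in H3WT (SD, n = 3), so the groups overlapped and each spanned low and high libraries.

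Levels were compared between genes per kilobase of the longest annotated transcript. In H3K9M the mean level fell from Col1a1 (1812 CPM per kb) to Col1a2 (1233), Col3a1 (667), Col5a2 (582), Col6a1 (325), Col5a1 (316), Col6a3 (214), Col6a2 (194) and Col12a1 (91.0). In H3WT the order of the first 6 was the same, from 1930 CPM per kb for Col1a1 to 376 for Col5a1, and it ended with Col6a2 (241), Col12a1 (172) and Col6a3 (156). Col1a1 exceeded Col1a2 per kb in all 6 libraries, by 1.02-fold to 1.68-fold. Col3a1 and Col5a2 were not apart beyond their spread, since their ratio per kb ran from 0.979 to 1.62. These values depend on the transcript model. Per kb of all annotated exons Col1a1 had 1691 CPM per kb and Col1a2 543 over the 6 libraries, a wider gap than per kb of the longest transcript. Per kb of all annotated exons Col3a1 (390 CPM per kb over the 6 libraries) was below Col5a2 (414).

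Type I collagen transcripts varied far more between libraries than between groups. Col1a1, the chain present in 2 copies in the usual type I molecule, had 15550, 4962 and 11730 CPM in H3K9M and 18930, 3685 and 11720 CPM in H3WT. The highest and the lowest library were both H3WT, 5.14-fold apart, and the 3 H3K9M values lay between them. The log2 fold change (H3K9M minus H3WT) was -0.09 (95% interval -1.63 to 1.45, adjusted p 0.973 by edgeR's quasi-likelihood test, adjusted by Benjamini-Hochberg over all tested genes). Col1a2, the partner chain, had 9023, 3663 and 7096 CPM in H3K9M and 10140, 3243 and 7338 CPM in H3WT. Its libraries stood in nearly the same order, with H3WT replicate 1 highest and H3WT replicate 2 lowest. The log2 fold change of Col1a2 was -0.07 (95% interval -1.17 to 1.03, adjusted p 0.972, edgeR). These intervals leave room for a change of more than 2-fold in either direction for both genes.

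**Figure D1:**
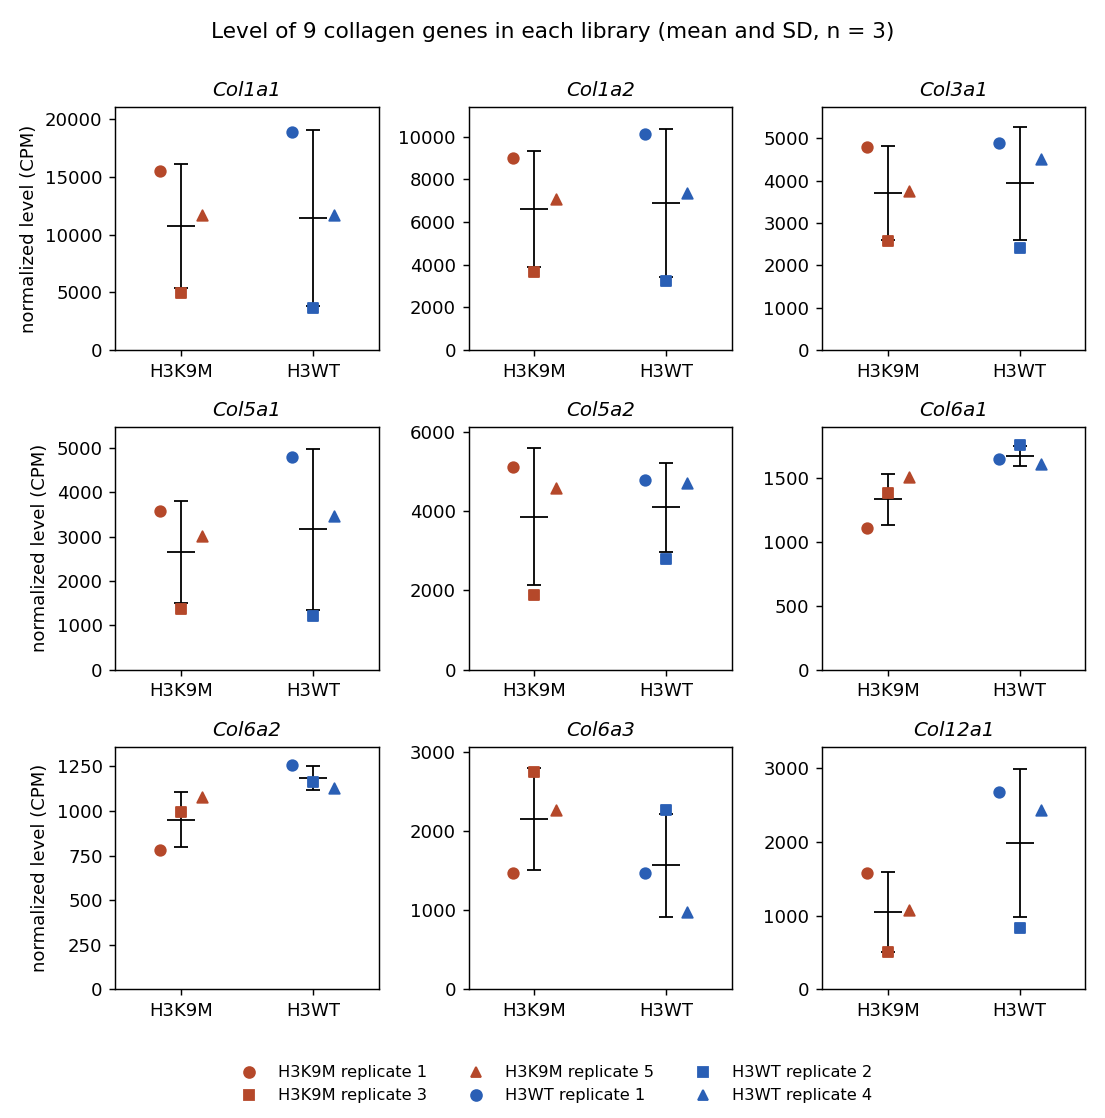
Normalized level (CPM, linear axis from 0) of each of the 9 collagen genes in every library, with H3K9M in red and H3WT in blue, and the mean and SD of 3 libraries in black. In types I, III, V and XII the squares (H3K9M replicate 3 and H3WT replicate 2) are the lowest point of their group, while Col6a1 and Col6a2 have every H3K9M point below every H3WT point.

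The type III and type V genes also had H3K9M replicate 3 and H3WT replicate 2 as their 2 lowest libraries. Col3a1, whose product forms the pliable fibrils of soft tissue, had 4804, 2567 and 3760 CPM in H3K9M and 4884, 2422 and 4516 CPM in H3WT. The groups overlapped almost fully, with a log2 fold change of -0.09 (95% interval -0.82 to 0.65, adjusted p 0.943, edgeR). Col5a1, the chain that nucleates fibrils, had 3584, 1374 and 3003 CPM in H3K9M and 4797, 1221 and 3470 CPM in H3WT. Again an H3WT library was at each end, and the log2 fold change was -0.25 (95% interval -1.57 to 1.07, adjusted p 0.897, edgeR). Col5a2, the second type V chain and the chromosomal neighbour of Col3a1, had 5115, 1882 and 4572 CPM in H3K9M and 4774, 2802 and 4704 CPM in H3WT. Here the H3K9M libraries were at both ends, and the log2 fold change was -0.09 (95% interval -0.99 to 0.81, adjusted p 0.955, edgeR).

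Col12a1, whose product bridges the surface of type I fibrils, had the most negative group difference of the 9 genes. It had 1573, 501 and 1070 CPM in H3K9M and 2669, 828.5 and 2430 CPM in H3WT. H3WT replicates 1 and 4 lay above all H3K9M libraries and H3WT replicate 2 lay among them. The log2 fold change was -0.91 (SE 0.56, 95% interval -2.25 to 0.43) and did not pass the test (adjusted p 0.55, edgeR). Leaving out H3WT replicate 2 gave -1.27 (unadjusted p 0.0255, adjusted p 0.217, edgeR) and leaving out H3K9M replicate 3 gave -0.57 (adjusted p 0.797, edgeR).

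The type VI genes differed from the others, and the third chain differed from the first pair. Col6a1 had 1112, 1381 and 1508 CPM in H3K9M and 1653, 1761 and 1612 CPM in H3WT. Every H3K9M library lay below every H3WT library, although the gap between H3K9M replicate 5 and H3WT replicate 4 was small. The log2 fold change of Col6a1 was -0.33 (95% interval -0.69 to 0.03, unadjusted p 0.0656, adjusted p 0.44, edgeR). Col6a2, which encodes the other short chain, had 780, 992.4 and 1081 CPM in H3K9M and 1260, 1165 and 1127 CPM in H3WT. Its groups did not overlap after scaling between libraries, with a log2 fold change of -0.32 (95% interval -0.68 to 0.05, adjusted p 0.456, edgeR). As a share of all counted reads, without that scaling, they did overlap, at 0.108% in H3K9M replicate 5 and 0.1077% in H3WT replicate 4. H3K9M replicate 1 was the lowest library for both genes, and without it the log2 fold changes were -0.21 and -0.19.

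Col6a3, the long chain of type VI, had 1469, 2742 and 2264 CPM in H3K9M and 1473, 2266 and 974.4 CPM in H3WT. It was the only member with a positive log2 fold change, 0.46 (95% interval -0.34 to 1.25), which did not pass the test (adjusted p 0.631, edgeR). H3K9M replicate 3 was its highest library and H3WT replicate 4 its lowest, and the groups overlapped. It was 0.83 when H3WT replicate 2 was left out (unadjusted p 0.029, adjusted p 0.23, edgeR) and 0.21 when H3WT replicate 4 was. The other type VI genes were near or at 0: Col6a4 had 6 counts in 1 library, Col6a5 had 0 counts in all 6, and Col6a6 had 22 and 4 counts in H3WT replicates 1 and 4.

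Over the 9 members, 0 passed an adjusted p of 0.05 (edgeR), as did 0 of the 13761 genes tested (0%). At an unadjusted p under 0.05 there were 0 members, where 12.2% of all tested genes lay under it. DESeq2 and limma-voom also called 0 members, with Col6a1 alone at an unadjusted p under 0.05 in each (0.0399 and 0.0485). The log2 fold change was negative in 8 members and positive in 1, with a median of -0.09 against -0.003 over all tested genes. Of the 9 members, 2 had groups that did not overlap (Col6a1 and Col6a2), against 19.4% of all tested genes. The 8 negative signs share the same 6 libraries. Without H3K9M replicate 3 or without H3WT replicate 1, the sign turned in Col1a1, Col1a2, Col3a1, Col5a1 and Col5a2, and 3 of the 9 members were then negative.

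**Figure D2:**
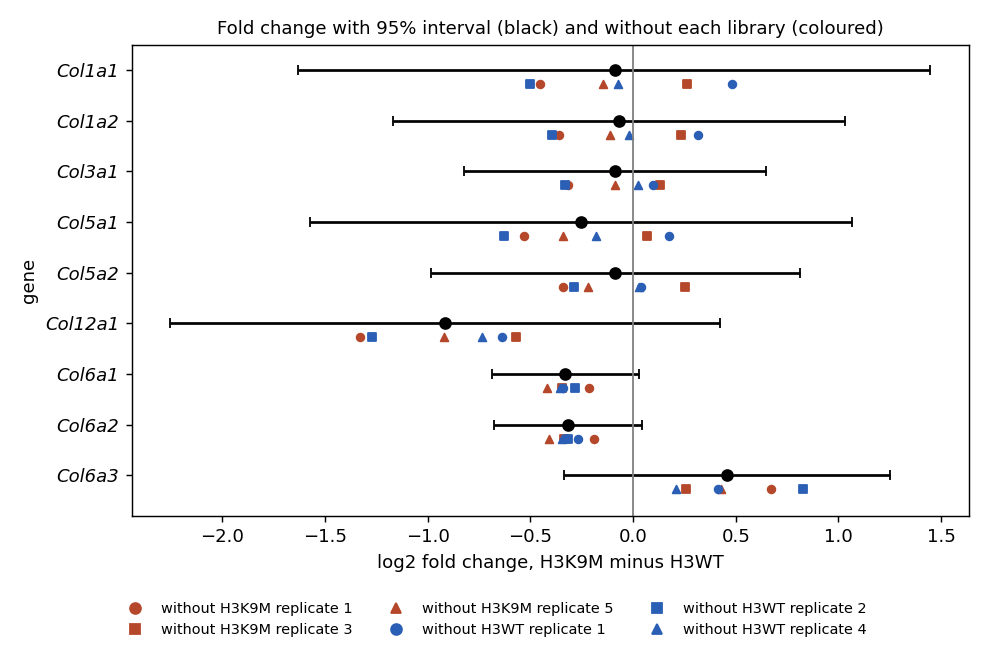
Log2 fold change (H3K9M minus H3WT) of each collagen gene with its 95% interval in black, and below it the same value refitted without 1 library at a time, in red without an H3K9M library and in blue without an H3WT library. All 9 intervals include 0, and the coloured points lie on both sides of 0 for Col1a1, Col1a2, Col3a1, Col5a1 and Col5a2.

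Libraries of both groups shared 1 pattern across 6 members. H3K9M replicate 3 and H3WT replicate 2 were the 2 lowest libraries for Col1a1, Col1a2, Col3a1, Col5a1, Col5a2 and Col12a1, an order found in 10.5% of all tested genes. The pair of libraries and the 6 genes were picked from these same values, so that share describes the data and tests nothing. Relative to each gene's own mean, the median of these 6 genes was -0.93 (log2) in H3K9M replicate 3 and -0.78 in H3WT replicate 2. It was 0.46 and 0.21 in the other H3K9M libraries and 0.80 and 0.32 in the other H3WT libraries. H3WT replicate 1 was among the 2 highest libraries for all 6 genes and H3K9M replicate 1 for 5 of them. For Col6a3, H3K9M replicate 3 (0.64) and H3WT replicate 2 (0.37) were instead its 2 highest libraries. There H3WT replicate 2 was nearly level with H3K9M replicate 5 (2266 against 2264 CPM). For Col6a1 and Col6a2, which varied little, H3WT replicate 2 (0.24 and 0.14) was among the 2 highest libraries and H3K9M replicate 3 (-0.11 and -0.09) among the 2 lowest.

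**Figure D3:**
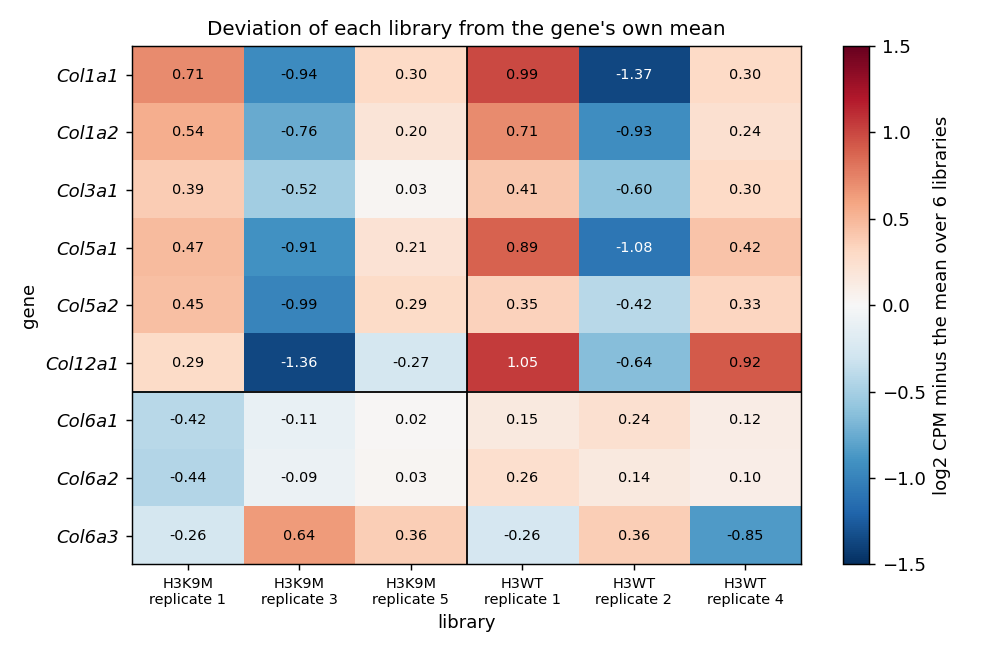
Deviation of each library's log2 CPM from the gene's own mean over 6 libraries, with genes in rows, libraries in columns, red above and blue below the mean. The columns of H3K9M replicate 3 and H3WT replicate 2 are blue in the upper 6 rows (types I, III, V and XII, down to -1.37 in Col1a1 and -1.36 in Col12a1) and red or near white in the lower 3 (type VI).

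The spread within groups was correspondingly large for these genes. The SD of log2 CPM within groups was 1.05 for Col1a1, larger than in 89.4% of tested genes, 0.90 for Col5a1 (86.5%), 0.89 for Col12a1 (86.4%) and 0.51 for Col3a1 (72.1%). By contrast it was 0.17 for Col6a1 (22.6%) and 0.18 for Col6a2 (26.3%), both less variable than most genes, and 0.54 for Col6a3 (74.0%).

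Most listed smooth muscle and pericyte markers were also lowest in H3K9M replicate 3 and H3WT replicate 2, as were 10.5% of all tested genes. The 5 smooth muscle and pericyte markers summed to 2694, 455.7 and 1453 CPM in H3K9M and to 3337, 755.6 and 3394 CPM in H3WT. Most of this was Acta2, smooth muscle actin, which activated fibroblasts also make, at 422.2 CPM in H3K9M replicate 3, 702.5 CPM in H3WT replicate 2 and 1384 CPM or more elsewhere. Rgs5, a pericyte marker, was not among them: it had 12.7 CPM in H3K9M replicate 3 and 12.6 CPM in H3WT replicate 2, and was lowest in H3WT replicate 1 (4.94 CPM). Of this list 5 of 5 genes were tested and 0 passed, with 4 lower and 1 higher in H3K9M. In bulk RNA fewer cells of a type and less RNA per cell cannot be told apart, and the part of these cells in the collagen values was not tested. The chondrocyte markers were highest in H3WT replicate 2 (19400 CPM) but not in H3K9M replicate 3 (7830 CPM). Skeletal muscle markers had their highest sum in H3K9M replicate 3 (232.2 CPM) and their lowest in H3WT replicate 2 (13.18 CPM). Tendon markers summed to 673.1 CPM in H3K9M replicate 3 and 877 CPM in H3WT replicate 2, against 825.6 to 1800 CPM in the others. Of the listed skin fibroblast markers, Pdgfra (236.3 and 242.8 CPM) and Ly6a (207.9 and 215.6 CPM) were highest in those 2 libraries. Thy1 was lowest there (96.9 and 22.6 CPM), and Dpt and Cd34 were neither.

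Ratios of 2 genes within a library do not depend on the scaling between libraries. They are given as values, because 3 against 3 libraries cannot reach an exact two-sided p below 0.1. The count ratio of Col1a1 to Col1a2 was 1.72, 1.35 and 1.65 in H3K9M and 1.87, 1.14 and 1.60 in H3WT, lowest in the libraries with the least type I collagen. The ratio of Col6a1 to Col6a2 moved least, from 1.31 to 1.51 over all 6 libraries. The type V ratio of Col5a1 to Col5a2 was 0.657 to 0.730 in H3K9M and 0.436 to 1.00 in H3WT. The neighbours Col3a1 and Col5a2 had ratios of 0.822 to 1.36 in H3K9M and 0.864 to 1.02 in H3WT.

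Of the 9 ratios examined, 2 had groups that did not overlap. The ratio of Col12a1 to Col1a1 was 0.101, 0.101 and 0.0913 in H3K9M but 0.141, 0.225 and 0.207 in H3WT. All 3 H3K9M values lay below all 3 H3WT values, and the H3K9M values stayed close together although Col1a1 itself ran from 4962 to 15550 CPM between those libraries. The mean log2 ratio was -3.36 ± 0.09 in H3K9M and -2.42 ± 0.36 in H3WT (SD, n = 3), a difference of -0.94 that stayed between -1.14 and -0.81 when any 1 library was left out. When every other tested gene was set against Col1a1 in the same way, the groups did not overlap in 2.91% of them. Col12a1 had the same 2 lowest libraries as Col1a1, an order found in 10.5% of all tested genes. The 2.91% is therefore not a share among genes that follow Col1a1 in this way. Ratios of Col3a1 and Col5a1 to Col1a1 overlapped, at 0.309 to 0.517 and 0.230 to 0.277 in H3K9M against 0.258 to 0.657 and 0.253 to 0.331 in H3WT.

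The other separated ratio was that of Col6a3 to Col6a1, at 1.32, 1.99 and 1.50 in H3K9M and 0.892, 1.29 and 0.604 in H3WT. The lowest H3K9M value was just above the highest H3WT value. The mean log2 ratio was 0.66 ± 0.30 in H3K9M and -0.18 ± 0.55 in H3WT (SD, n = 3), a difference of 0.84 (0.56 to 1.10 when any 1 library was left out). Set against Col6a1, 30.4% of all other tested genes did not overlap, so this separation was common among genes. The ratio of Col1a1 to Col2a1, the usual index of dedifferentiation, ran from 0.899 to 3.13 in H3K9M and from 0.261 to 3.85 in H3WT, with a range of 14.8-fold over the 6 libraries and overlapping groups.

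**Figure D4:**
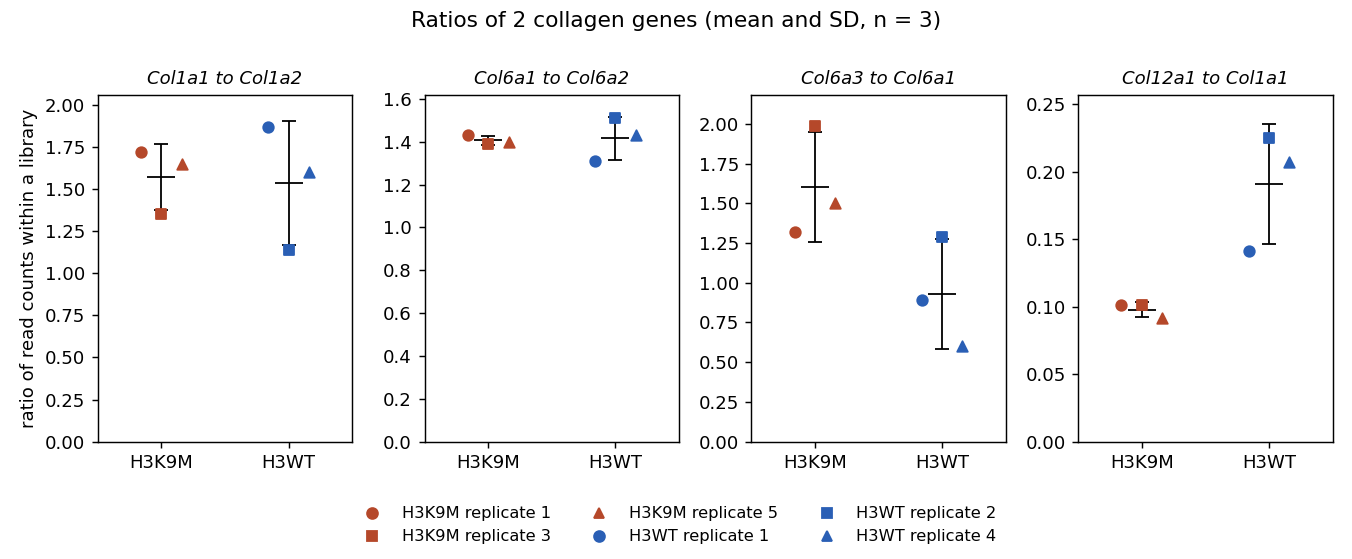
Ratio of the read counts of 2 collagen genes within each library (linear axis from 0), with H3K9M in red, H3WT in blue and the mean and SD of 3 libraries in black. Col6a1 to Col6a2 is nearly level over all 6 libraries, whereas for Col12a1 to Col1a1 the 3 H3K9M points lie between 0.0913 and 0.101 and all H3WT points lie at 0.141 or above.

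The make-up of the 9 transcripts, as shares of their summed reads per kilobase, varied between libraries of the same group. Type I made up 60.8%, 46.3% and 55.7% in H3K9M and 61.3%, 38.4% and 53.9% in H3WT. Type VI made up 8.12%, 24.7% and 13.7% in H3K9M and 9.71%, 27.9% and 11.6% in H3WT, so it was largest where type I was smallest. Type V kept a nearly level share of 13.6% to 18.1%. Col12a1 made up 1.33% to 1.93% in H3K9M and 2.25% to 3.40% in H3WT, and was the only 1 of the 9 genes whose share did not overlap between the groups. No share is free of the others, since they sum to 100 by construction. Type I was the largest part in every library, so the Col12a1 share is not separate from its ratio to Col1a1 given above. No such share was computed for other genes.

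**Figure D5:**
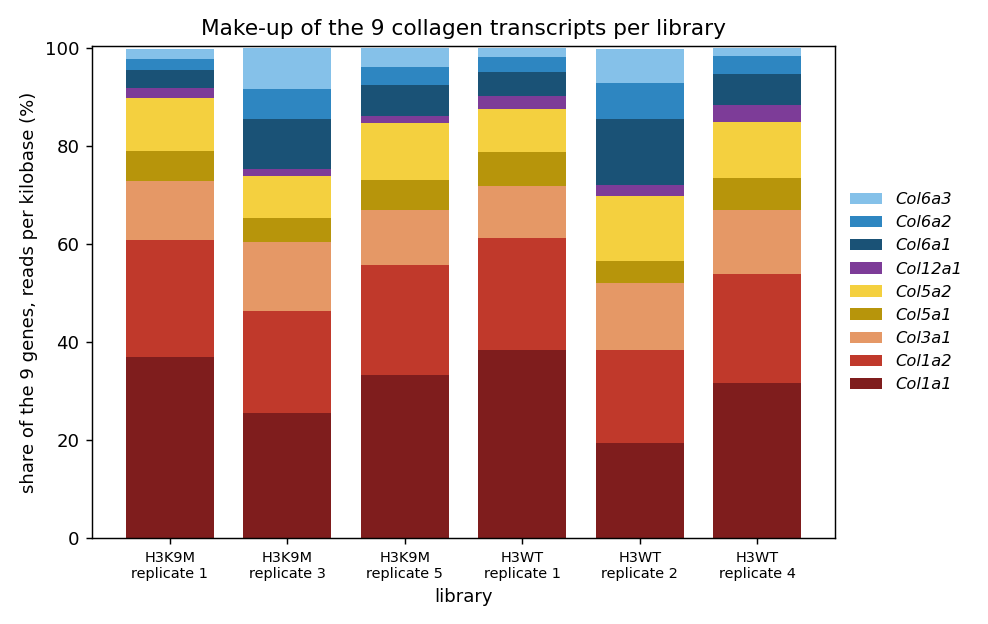
Share (%) of each gene in the summed reads per kilobase of the 9 collagen genes, 1 bar per library. The blue part (type VI) is 24.7% and 27.9% in H3K9M replicate 3 and H3WT replicate 2 and 8.12% to 13.7% in the other 4 libraries.

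The genes most like Col1a1 across the 6 libraries were sought among 9442 tested genes with a mean of at least 10 CPM. The members themselves were left out of this search, so other collagens of the set could be closer. By Pearson's r of log2 CPM these included Gstm2 (0.993), a glutathione transferase, Abhd17c (0.984), Siglecg (0.983) and Pknox1 (0.982). The genes most like Col6a1 were Aqr (0.996), Fam120a (0.99), Scap (0.986), Trip12 (0.984) and Rapgef2 (0.981). These values describe 6 libraries that include both groups, and they carry no test.

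Other genes of collagen biology were read from lists written from general knowledge. In each of the 7 lists 0 genes passed an adjusted p of 0.05 (edgeR). Of 33 other collagens 25 were tested, 7 higher and 18 lower in H3K9M, with a median log2 fold change of -0.31. Of 19 genes for procollagen modification and folding 7 were higher and 12 lower (median -0.11). The 2 with the smallest p were Plod3, a lysyl hydroxylase and glycosyltransferase of collagen (303 against 439 CPM, log2 fold change -0.53, adjusted p 0.29, edgeR), and P3h3, of the prolyl 3-hydroxylase family (-0.46, adjusted p 0.338). Of 12 tested genes for propeptide processing and crosslinking 4 were higher and 8 lower (median -0.19), led by the tolloid protease Tll1 (log2 fold change 0.95, adjusted p 0.277, edgeR) and the procollagen N-proteinase Adamts14 (1.10, adjusted p 0.29). Both are low, at 13.9 and 18.9 CPM in H3K9M.

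Of 14 tested fibril assembly partners 4 were higher and 10 lower (median -0.18). Prelp, a small leucine-rich proteoglycan that binds collagen, had 129.2, 83.8 and 137.8 CPM in H3K9M and 682.9, 333.9 and 755.5 CPM in H3WT, with no overlap (log2 fold change -2.34, adjusted p 0.17, edgeR). Fmod, fibromodulin, had a log2 fold change of -0.93 (adjusted p 0.294, edgeR), at a mean of 695 CPM in H3K9M (SD 164.3) and 1321 CPM in H3WT (SD 463.8). Of 11 collagen receptors 2 were higher and 9 lower (median -0.05), with the smallest p in Antxr1 (-0.49) and the integrin Itga1 (-1.38), each at an adjusted p of 0.394. Of 9 tested degradation genes 4 were higher and 5 lower (median -0.04), with Timp1, a metalloproteinase inhibitor, at 0.54 (adjusted p 0.28, edgeR) and the collagenase Mmp13 at -1.24 (adjusted p 0.414, edgeR). Of 25 tested regulators of the type I genes 9 were higher and 16 lower (median -0.03). Scx, the tendon factor that binds the type I promoters, had 89.5, 75.1 and 90.7 CPM in H3K9M and 50.6, 51.8 and 33.6 CPM in H3WT (log2 fold change 0.91, adjusted p 0.19, edgeR), and the receptor gene Tgfbr2 had -0.72 (adjusted p 0.308, edgeR).

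Of the 25 other collagens tested, 3 had groups that did not overlap (Col5a3, Col14a1 and Col20a1), where 19.4% of all tested genes did not. Col5a3, the third type V chain, had 159.6, 192.5 and 162.5 CPM in H3K9M and 131.4, 56.6 and 52.1 CPM in H3WT. All H3K9M libraries lay above all H3WT libraries, and the log2 fold change was 1.10 (95% interval 0.26 to 1.94, adjusted p 0.308, edgeR). Col14a1, which like Col12a1 encodes a collagen of fibril surfaces, had 6.43, 3.87 and 4.03 CPM in H3K9M and 45.8, 12.3 and 39.6 CPM in H3WT. It too did not overlap, in the direction of the Col12a1 difference, with a log2 fold change of -2.78 (95% interval -3.95 to -1.60, adjusted p 0.17, edgeR). Col20a1, another collagen of the fibril-associated family, differed the opposite way, with 11.5 CPM or more in each H3K9M library and 9.37 to 10.7 CPM in H3WT (log2 fold change 0.52, adjusted p 0.485, edgeR). With DESeq2, which called 2.38% of the genes it tested, Col14a1 (adjusted p 4.14e-07), Prelp (5.02e-12), Col5a3 (0.0274), Fmod (0.0297), Itga1 (0.0451) and Scx (0.00682) passed. Without H3WT replicate 2, when edgeR called 0.639% of genes, Col14a1 and Prelp passed (adjusted p 0.0129 for each). Under both settings 0 of the 9 members passed.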

How the data were processed

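Per the labels' protocols, libraries were made from polyadenylated RNA with a Tecan mRNA kit. The authors deposited raw counts for each library under gene symbols, and 0 columns belonged to other samples. The submitters' processing notes name HISAT2, featureCounts, DESeq2 and the build mm10, with no settings. The annotation and strand rule are not given in the sources used here.

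Counts were analysed with edgeR 4.0.16 in R 4.3.3: filterByExpr, TMM scaling, a robust quasi-likelihood fit with genotype as the only term, and Benjamini-Hochberg adjustment over 13761 genes at 0.05. SE is the log2 fold change divided by the square root of F. Log2 CPM used a prior count of 2. Alternatives were DESeq2 1.42.0, limma-voom (limma 3.58.1), other scalings and filters, offsets for GC content or length and GC content (loess, span 0.5), and leaving out libraries. The fit was tested on simulated data. Lengths, places and overlaps came from GENCODE M21 (GRCm38, the same coordinates as mm10), and similar transcripts from blastn 2.17.0.

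The 9 members and the lists were chosen with earlier results of these data known. Named besides the members were Col2a1, relatives of the members, the 2 genes of each list with the smallest p, and the 5 genes most like Col1a1 and Col6a1, of which 1 is not reported here. Acta2, Rgs5, Col20a1, Myod1, Myh3, Cd68, Pdgfra, Ly6a, Thy1, Dpt and Cd34 were named after their values were seen. Listed markers of bone and of skin fibroblasts (0 genes passed in each) were also read. With 3 libraries a group, precision depends on the spread between them as well as on depth.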

Additional observations from a re-analysis of the deposited data

How the results depend on the processing

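No member passed under any alternative, so its count was 0 in each. The count over all genes was 0 in the reported fit, 365 with DESeq2, 36 when the filter kept all genes with any count, and 0 to 91 when 1 library was left out (91 without H3WT replicate 2, 2 without H3K9M replicate 3). Leaving out H3K9M replicate 3 and H3WT replicate 2 together, chosen after seeing the data like the length and GC content offset, gave 302, and Col12a1 then had a log2 fold change of -0.94 (adjusted p 0.052, edgeR). The cause of these shifts was not tested. Small differences changed sign: Col1a1 was 0.056 with limma-voom and 0.019 with the GC content offset, and with the length and GC content offset Col1a1 was 0.19, Col1a2 0.13, Col3a1 0.062, Col5a1 0.074 and Col5a2 0.048. Col5a2 was 0.043 without both libraries. When 1 library was left out the log2 fold change ran from -0.50 to 0.48 in Col1a1, -0.40 to 0.32 in Col1a2, -0.33 to 0.13 in Col3a1, -0.63 to 0.18 in Col5a1 and -0.34 to 0.25 in Col5a2. The signs of Col6a1, Col6a2, Col6a3 and Col12a1 held under every alternative run. No paired analysis was possible because the groups share only replicate number 1.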
